A study of Sus scrofa with 10 samples.

Results

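Genes of the major histocompatibility complex (MHC) and of antigen presentation were followed through 10 liver transcriptomes of male pigs. Of 10 genes asked for by name, 6 were found among the 25009 Ensembl gene identifiers of the deposited table by their pig gene names. They were SLA-DRA, SLA-DQB1, SLA-DMA and SLA-DMB of the class II pathway, and TAP1 and TAP2 of the class I pathway. SLA is the swine name of the complex, and SLA-DRA was the row that the name table lists under the human prefix, HLA-DRA. No row was matched by name to SLA-DRB1, SLA-DQA1, CD74 or B2M, which are not analysed here. All 6 genes reached a mean of 1 RPKM (reads per length of the gene and per mapped reads of the library) over the libraries and were tested among 10931 genes.

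The study compared 5 liver samples labelled high with 5 labelled low for growth and fatness, from tissue frozen at slaughter. The age label is 175 for all, without a unit, and no breed, diet or treatment is labelled. Nothing in the labels ties each library to its own animal, so the p-values speak of the spread among these libraries, which may be technical.

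MHC class II molecules are pairs of an alpha and a beta chain, such as DR and DQ, that show peptides from engulfed proteins to CD4+ T cells. DM, a pair of DMA and DMB that stays inside the cell, loads the peptides, and DO restrains DM. Macrophages, dendritic cells and B cells make class II molecules, in liver including the resident Kupffer cells, whereas hepatocytes make little of them at rest. TAP1 and TAP2 together form the pump that carries peptides from the cytosol into the endoplasmic reticulum for class I molecules, which nearly all nucleated cells bear. In the RefSeq table of the pig assembly Sscrofa11.1 all 6 genes lie on chromosome 7, between SLA-DRA and SLA-DOA, with TAP2, PSMB8, TAP1 and PSMB9 next to each other. In that table a pseudogene, SLA-DQB2, neighbours SLA-DQB1, and how the authors' counting treated near-identical copies is not stated, so the level of SLA-DQB1 is uncertain.

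The libraries resembled each other in the number of genes above 0, from 16195 to 16802, and relative depth ran over a 1.41-fold range, while the absolute depth is unknown. Transcripts of hepatocytes dominated, with ALB at 22922 to 52025 RPKM. Some libraries stood apart. The share of mitochondrially encoded transcripts was 20.2% in low replicate 4 and at most 15.0% elsewhere. GFAP, an astrocyte gene, reached 3.66 and 4.22 RPKM in high replicates 1 and 5, against at most 0.35 elsewhere. ALB was lowest in low replicate 2.

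SLA-DRA (ENSSSCG00000001453), the alpha chain of the DR molecule, had the highest level of the 6 genes. It had 65.7, 73.1, 51.1, 59.1 and 49.0 RPKM in high replicates 1 to 5. In low replicates 1 to 5 it had 68.7, 151, 43.3, 60.5 and 31.7 RPKM. Low replicate 2 alone lay above all other libraries, low replicate 5 had the lowest value, and the high libraries fell between them. The high libraries averaged 59.6 ± 10.1 RPKM and the low libraries 71.1 ± 47.2 (mean ± SD, n = 5 per group, as for the means that follow). The 4.77-fold range from the lowest to the highest library was the widest of the 6 genes.

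SLA-DQB1 (ENSSSCG00000001457), the beta chain of DQ, followed the same order of libraries in large part. It had 48.5, 67.2, 42.3, 49.6 and 29.5 RPKM in high replicates 1 to 5. It had 65.6, 87.8, 32.4, 44.7 and 23.0 RPKM in low replicates 1 to 5. Low replicate 2 was again highest and low replicate 5 lowest, and the groups overlapped across most of their range. The means were 47.4 ± 13.6 RPKM in high and 50.7 ± 26.2 in low. SLA-DRA had the higher RPKM of the pair in 10 of 10 libraries, with a ratio of 1.05 in low replicate 1 to 1.73 in low replicate 2.

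The loading genes were lower than the chains they serve. SLA-DMA (ENSSSCG00000001470) had 7.83, 18.0, 8.0, 12.0 and 8.97 RPKM in high replicates 1 to 5 and 16.7, 16.5, 9.25, 13.9 and 6.37 in low replicates 1 to 5. SLA-DMB (ENSSSCG00000001469) had 6.74, 11.3, 5.73, 10.6 and 6.62 RPKM in high and 11.5, 14.9, 7.08, 9.90 and 6.89 in low, in the same order. High replicates 2 and 4 and low replicates 1, 2 and 4 were the upper libraries for both genes, and the other 5 were lower for both. The means of SLA-DMA were 10.97 ± 4.29 RPKM in high and 12.5 ± 4.56 in low, and those of SLA-DMB were 8.19 ± 2.55 and 10.1 ± 3.34. SLA-DQB1 exceeded SLA-DMA in 10 of 10 libraries, by 3.21-fold to 6.19-fold in RPKM. SLA-DMA exceeded SLA-DMB in 9 of 10, so the order of these neighbours was less clear than their distance from DR and DQ.

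The transporter genes had the lowest levels. TAP1 (ENSSSCG00000025618) had 1.87, 2.55, 2.62, 2.87 and 2.18 RPKM in high replicates 1 to 5 and 3.36, 3.48, 3.47, 2.04 and 2.02 in low replicates 1 to 5. Low replicates 1 to 3 lay above every high library and low replicates 4 and 5 lay below 4 of the 5. TAP2 (ENSSSCG00000025593) had 2.72, 2.26, 2.74, 2.71 and 3.20 RPKM in high and 3.68, 4.25, 2.17, 3.31 and 1.76 in low. Here low replicate 3, among the highest for TAP1, was next to the lowest. The means of TAP1 were 2.42 ± 0.394 and 2.87 ± 0.772 RPKM and those of TAP2 were 2.73 ± 0.333 and 3.03 ± 1.04 in high and low. TAP2 was the higher of the pair in 6 of 10 libraries, so their levels could not be put in order.

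**Figure D1:**
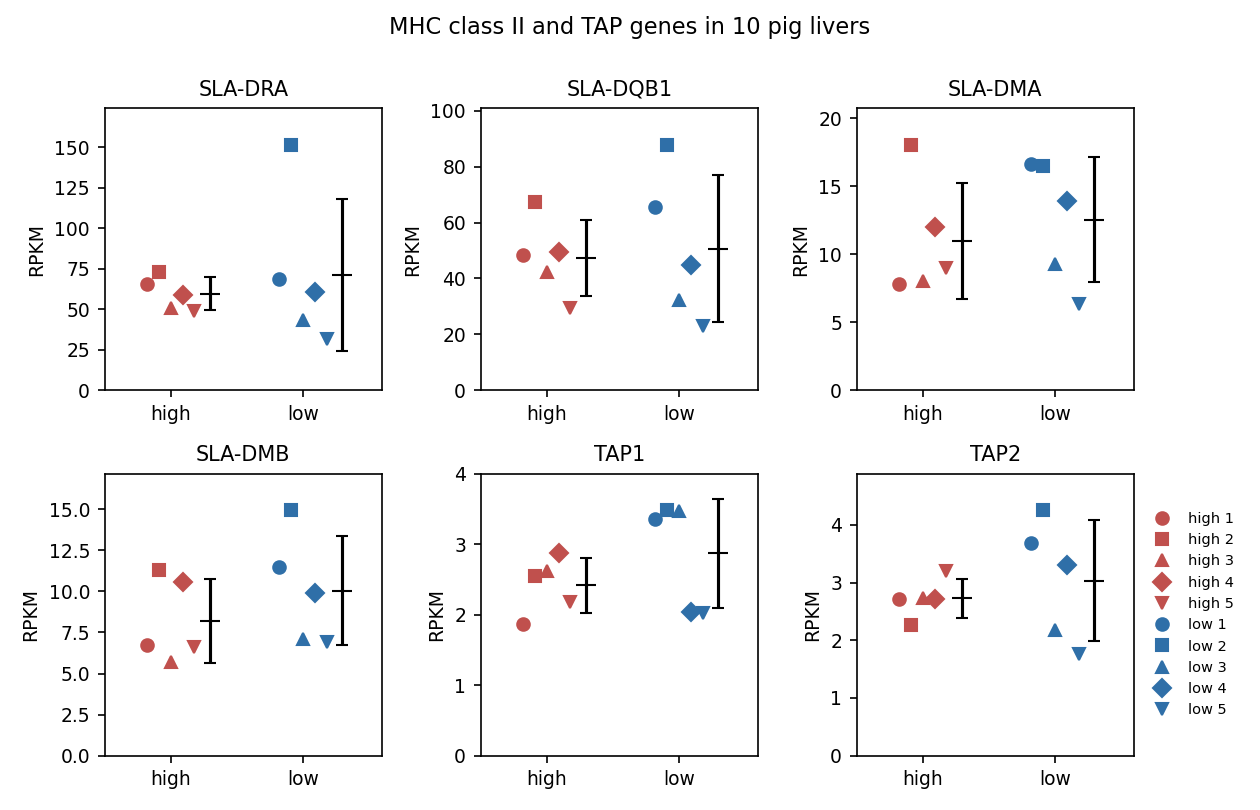
RPKM of the 6 genes in each library (vertical axes, each from 0), with 1 point per library, coloured by group and shaped by replicate number, and the mean ± SD (n = 5) beside each group. The groups overlap for every gene, and low replicate 2 is the highest library for 5 of the 6.

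The comparison of high with low asked whether these genes differ between livers of pigs that diverge in growth and fatness. None of the 6 passed the threshold of 0.05 on the adjusted p in limma. Over all genes, 0 of 10931 passed (0%), 497 had an unadjusted p under 0.05 (4.55%) and 88 had groups that did not overlap (0.805%). Of the 6 genes, 0 had an unadjusted p under 0.05 and 0 had groups that did not overlap. The mean RPKM was higher in low for 6 of 6 genes, with no share over all genes to set beside it. The low mean of SLA-DRA includes 151 RPKM in low replicate 2, against at most 68.7 in the other low libraries. The mean log2(RPKM + 1) was higher in low for 5 of 6, where 51.2% of all tested genes had the higher mean log2 value in low. The median difference in log2(RPKM + 1), high minus low, was -0.12 over the 6 genes and -0.0049 over all genes tested.

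SLA-DMB had the smallest p of the 6. Its difference, high minus low, was -0.26 on the log2(RPKM + 1) scale (SE 0.23, 95% interval -0.77 to 0.25, adjusted p = 0.961 in limma, exact two-sided permutation p = 0.325). For TAP1 the difference was -0.16 (95% interval -0.50 to 0.17), for SLA-DMA -0.17 (-0.79 to 0.46) and for TAP2 -0.08 (-0.46 to 0.30). For SLA-DRA it was -0.058 (-0.80 to 0.69) and for SLA-DQB1 0.012 (-0.73 to 0.75). The intervals thus reached a ratio of high to low of 0.573 to 1.61 for SLA-DRA and of 0.708 to 1.13 for TAP1. Exact two-sided permutation p-values over all assignments of 5 against 5 ran from 0.325 to 0.968 for the 6 genes. Single libraries set the sign for 3 genes: without low replicate 2 the difference was 0.26 for SLA-DRA and 0.027 for TAP2. Without high replicate 5 it was 0.0070 for SLA-DRA. For SLA-DQB1 the sign turned without high replicate 1, 2 or 4 or low replicate 3 or 5, with values from -0.0077 to -0.23.

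**Figure D2:**
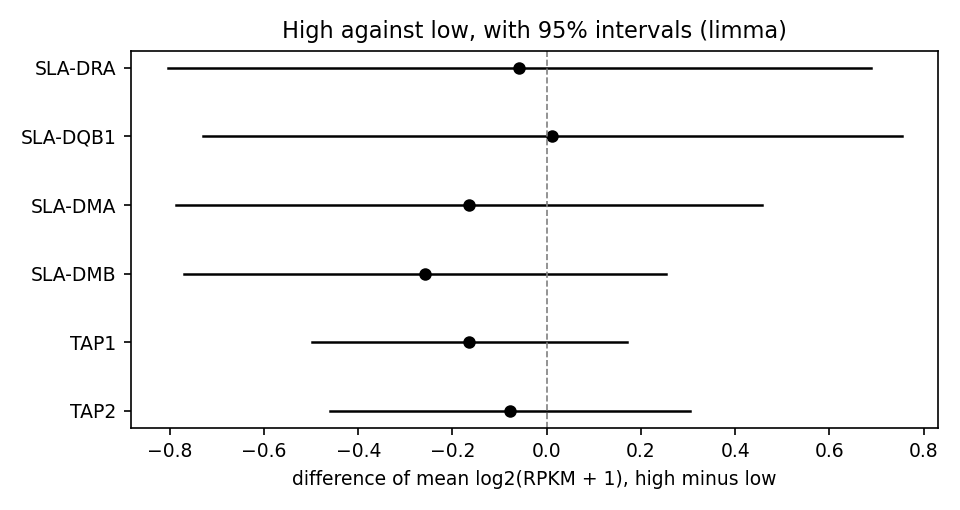
Difference of the mean log2(RPKM + 1), high minus low (horizontal axis), for each gene, with the 95% interval of the limma fit (n = 5 in each group). All 6 intervals include 0, and the point for SLA-DMB, at -0.26, lies farthest from it.

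In the authors' deposited table the signed fold was positive for all 6 genes, from 1.05 for SLA-DQB1 to 1.2 for SLA-DMB, with p-values from 0.24 for TAP1 to 0.84 for SLA-DQB1. The mean RPKM of each was higher in low, so for these 6 genes a positive sign of that fold went with the higher mean in low.

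The low group was the more scattered. The SD was larger in low than in high for 6 of 6 genes, in RPKM and in log2(RPKM + 1), where 63.2% of all tested genes had the larger SD of log2(RPKM + 1) in low. Low replicate 2 had the highest value for 5 of 6 genes and low replicate 5 the lowest for 4 of 6, which held for 24.9% and 24.4% of all tested genes. Over the 10 libraries the SD of log2(RPKM + 1) of SLA-DRA, 0.58, exceeded that of 92.6% of tested genes, and that of SLA-DQB1 exceeded 92.4%. SLA-DMA exceeded 87.9% and SLA-DMB 80.8%. The transporters sat near the middle, with TAP1 above 46.7% and TAP2 above 56.1%. The log2(RPKM + 1) scale lowers the SD of genes with low values such as the transporters.

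The 4 class II genes varied together across the libraries. Pearson's r of log2(RPKM + 1) over 10 libraries lay between 0.73 and 0.92 for their 6 pairs, and all 6 passed at an adjusted p under 0.05 (100000 permutations, Benjamini-Hochberg over the 15 pairs of the 6 genes). With Spearman's rho 4 of these 6 pairs passed as deposited, 1 with median ratio scaling, 1 without low replicate 2, and 0 without the 2 libraries farthest from the median on the x axis of each pair. SLA-DRA and SLA-DQB1 had r = 0.92 (permutation p = 5e-05, adjusted p = 0.00075) and rho = 0.95 (permutation p = 0.00011, adjusted p = 0.00165). Without low replicates 2 and 5, the libraries farthest from the median of SLA-DRA, their r was still 0.92. SLA-DMA and SLA-DMB had r = 0.90 (permutation p = 0.00161, adjusted p = 0.0121) and rho = 0.83 (permutation p = 0.00467, adjusted p = 0.0350), with r = 0.95 without high replicate 2 and low replicate 5.

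The r of each pair of a DM gene with DR or DQ was lower without low replicates 2 and 5. SLA-DQB1 and SLA-DMA had r = 0.84 (permutation p = 0.00293, adjusted p = 0.0147) and rho = 0.78 (permutation p = 0.0110, adjusted p = 0.0413). SLA-DRA and SLA-DMA had r = 0.73 (permutation p = 0.00697, adjusted p = 0.0174) and rho = 0.73 (permutation p = 0.0203, adjusted p = 0.0608). Without low replicates 2 and 5 these r were 0.73 and 0.67 and passed no longer (permutation test, adjusted p = 0.135 and 0.166). Fewer libraries were used in that test. Without low replicate 2 alone 3 of the 15 pairs passed. There r of SLA-DRA with SLA-DMB was 0.62 in place of 0.78, and that of SLA-DQB1 with SLA-DMB 0.71 in place of 0.81. SLA-DQB1 with SLA-DMA had 0.81 in place of 0.84 and passed (permutation test, adjusted p = 0.0422). SLA-DRA with SLA-DMA had 0.76 in place of 0.73 and did not pass (permutation test, adjusted p = 0.0546). In deviations from the group means all 6 class II pairs passed, with r from 0.73 to 0.92.

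**Figure D3:**
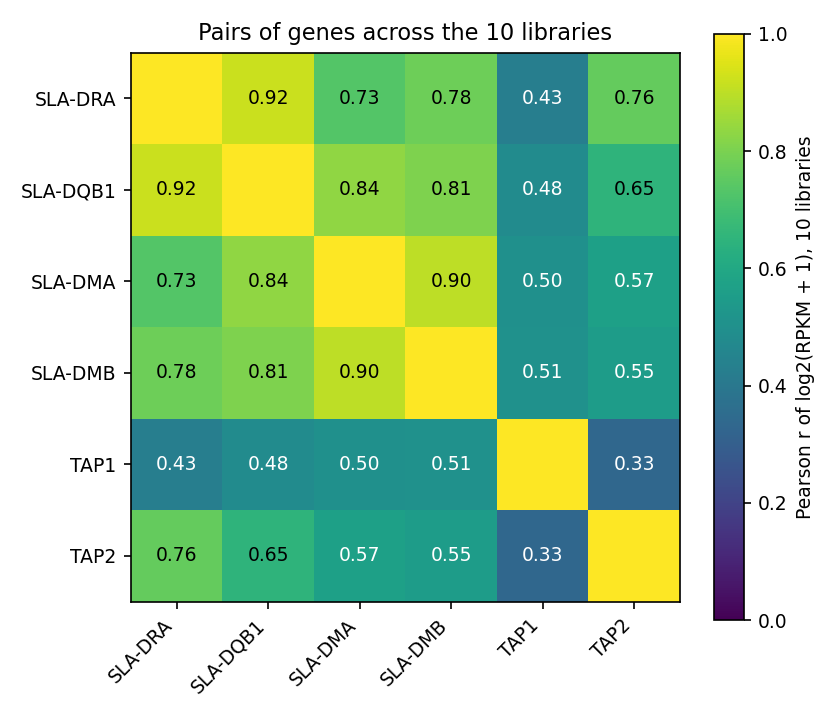
Pearson's r of log2(RPKM + 1) over the 10 libraries for each of the 15 pairs of genes, printed in each cell and shown by colour from 0 to 1. The block of 4 class II genes holds the values from 0.73 to 0.92, and TAP1 with TAP2 has the lowest, 0.33.

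Over the 10 libraries the transporters did not share this pattern as closely. Of the 8 pairs of a class II gene with a TAP gene, 1 passed. That pair, SLA-DRA with TAP2, had r = 0.76 (permutation p = 0.00938, adjusted p = 0.0201) and rho = 0.60 (permutation p = 0.0720, adjusted p = 0.154). It rested on low replicates 2 and 5, without which r was 0.24. SLA-DRA with TAP1 had r = 0.43 (permutation p = 0.229, adjusted p = 0.245) and rho = 0.27 (permutation p = 0.448), and r was -0.23 without the same libraries. SLA-DMA with TAP2 went the other way, with r = 0.57 over the 10 libraries and 0.76 without high replicate 2 and low replicate 5 (permutation test, adjusted p = 0.135). That lay above the 0.67 to 0.74 of DM genes with DR or DQ in the same kind of check. No other pair of a class II gene with a TAP gene rose in it. TAP1 and TAP2, which encode both parts of the pump and lie near each other on the chromosome, had r = 0.33 (permutation p = 0.343, adjusted p = 0.343) and rho = 0.31 (permutation p = 0.389). Their ratio, TAP2 over TAP1, ran from 0.625 in low replicate 3 to 1.62 in low replicate 4. Whether the r of class II pairs and of TAP pairs differ was not tested.

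**Figure D4:**
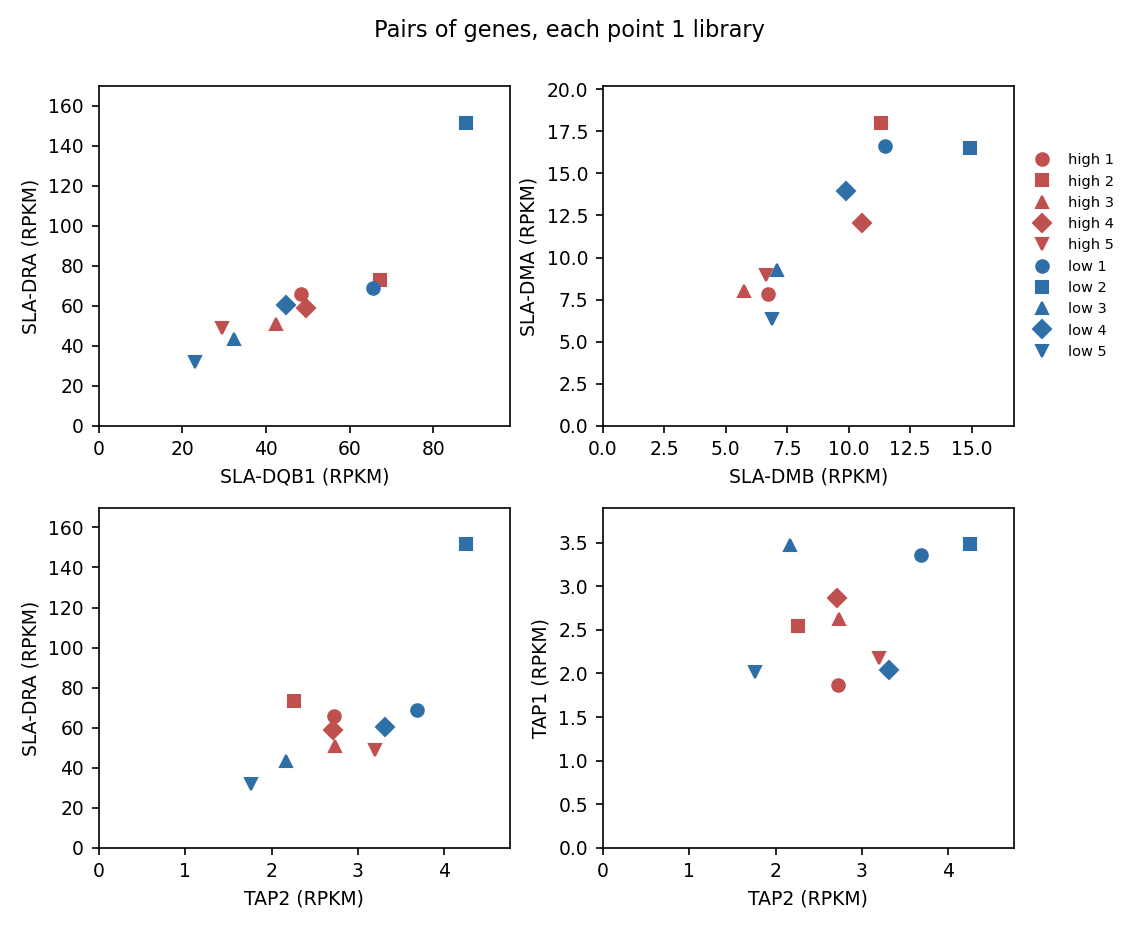
RPKM of 4 pairs of genes (linear axes from 0), with 1 point per library, coloured by group and shaped by replicate number. SLA-DRA follows SLA-DQB1 and SLA-DMA follows SLA-DMB in both groups, SLA-DRA follows TAP2 mainly through low replicates 2 and 5, and TAP1 and TAP2 show no clear relation.

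The named genes most like SLA-DRA among the other tested genes were taken by Pearson's r of log2(RPKM + 1) over the 10 libraries, and r is given as a measure of likeness with no test. GNA15, a G protein alpha subunit of blood cells, had r = 0.96, NCKAP1L, an actin regulator of blood cells, had 0.94, and the fatty acid synthase gene FASN had 0.92. LAP3, a leucine aminopeptidase, and RAPGEF1, an exchange factor for small GTPases, had 0.91 each, as had the checkpoint gene RAD9A. The formin gene FMNL1 and ITM2C had 0.90 each. GNA15 ran from 0.82 RPKM in low replicate 5 to 2.33 in low replicate 2, the same lowest and highest library as SLA-DRA. Without low replicates 2 and 5, r of these 8 genes fell to between 0.44 for RAD9A and 0.81 for RAPGEF1.

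TAP1 had another set of nearest genes. IRF7, a transcription factor of the interferon response, was the most like it with r = 0.92 (0.89 without high replicate 1 and low replicate 2). IRF7 had 6.73, 5.85 and 5.46 RPKM in low replicates 1 to 3, the libraries in which TAP1 was highest, and at most 3.01 in the others. Next came MOCS1 of molybdenum cofactor synthesis and the homeobox gene PBX2 with 0.90 each, and the DNA polymerase gene POLD1 and OLFM2 with 0.88 each. The beta-defensin gene DEFB1, the mitochondrial membrane gene TSPO and the mismatch repair gene MSH6 had 0.87 each. An r of at least 0.80 was reached by 140 non-member genes for SLA-DRA (1.28% of those tested) and by 67 for TAP1 (0.613%). The median r over the non-member genes tested was 0.255 with SLA-DRA and 0.148 with TAP1.

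The rest of the presentation pathway was counted in lists ordered by role, in which 0 genes passed over all genes in limma. Directions and median differences of the lists are of mean log2(RPKM + 1), high minus low. Over all tested genes, 51.2% had the higher mean in low on that scale and 4.55% had an unadjusted p under 0.05 in limma. No such share was taken for mean RPKM, and no list was tested as a set. Of the other class II genes, the DO chains SLA-DOA and SLA-DOB were found and lay under 1 RPKM on average, so they were not tested. SLA-DOA had 0.542 ± 0.115 RPKM in high against 0.754 ± 0.245 in low, and SLA-DOB 0.448 ± 0.166 and 0.512 ± 0.30. CIITA, the master activator of class II genes, also lay under the filter, with 0.16 RPKM in low replicate 5 to 1.0 in low replicate 1. It had 0.58 RPKM in low replicate 2, where SLA-DRA was highest, below only low replicate 1 and high replicate 2, with 0.83. Its r with SLA-DRA over the 10 libraries was 0.56, given with no test.

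The list of class II processing covers the proteases and helpers that cut proteins in endosomes. Of its 11 tested genes 10 had the higher mean log2(RPKM + 1) in low, against 51.2% of all tested genes, with a median difference of -0.09. By mean RPKM 9 were higher in low, with no share over all genes to set beside it. None of the list had an unadjusted p under 0.05 in limma. CTSH, a lysosomal cathepsin, had 43.7 ± 8.07 RPKM in high against 53.6 ± 8.62 in low, and IFI30, a thiol reductase of lysosomes, had 13.7 ± 2.42 and 17.3 ± 4.49. The cathepsin gene CTSS, which trims the invariant chain, had 118 ± 21.8 and 134 ± 22.7 RPKM. CTSZ had 43.8 ± 5.61 and 48.6 ± 6.55 RPKM. Their groups overlapped.

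In the list of peptide supply and loading for class I, 7 of 14 tested genes lay higher in low by mean log2(RPKM + 1) and 9 by mean RPKM, with a median difference of -0.0098, and 1 had an unadjusted p under 0.05. That was SEC61A1, a subunit of the protein channel of the endoplasmic reticulum, with 75.0 ± 20.5 RPKM in high and 47.4 ± 22.6 in low (adjusted p = 0.961 in limma). The immunoproteasome gene PSMB8 had 11.5 ± 2.32 and 15.3 ± 3.90 RPKM, and the peptide-trimming enzyme gene ERAP2 had 1.80 ± 0.495 and 2.62 ± 0.776. The chaperone gene CANX had 188 ± 26.6 and 155 ± 38.5 RPKM. Among class I heavy chains and their relatives only FCGRT was tested, the neonatal Fc receptor, with 65.7 ± 5.99 and 70.8 ± 11.9 RPKM and a difference of -0.09.

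In the list of transcription factors 6 of 8 tested genes had the higher mean in low, with a median difference of -0.12, and IRF1, an interferon-induced factor, had an unadjusted p of 0.0398 in limma (adjusted p = 0.961). IRF1 had 7.50 ± 2.29 RPKM in high and 9.98 ± 0.970 in low. IRF2 had 13.8 ± 2.78 and 16.0 ± 2.57 RPKM, NFYA, a subunit of the factor at the Y box of class II promoters, had 5.93 ± 0.546 and 6.69 ± 1.04, and RFX5, which binds the X box, had 2.58 ± 0.729 and 2.77 ± 0.510.

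The interferon gamma list, which shares genes such as IRF1 with the list of factors, had 3 of 8 tested genes with the higher mean in low, a median difference of 0.05 and 2 genes at an unadjusted p under 0.05. The chemokine gene CXCL11 had 0.54, 0.70, 0.09, 1.41 and 1.02 RPKM in high replicates 1 to 5 and 1.5, 3.71, 2.23, 2.18 and 1.23 in low replicates 1 to 5. High replicate 4 lay above low replicate 5, and the other high libraries lay below every low library. CXCL11 averaged 0.752 RPKM in high and 2.17 in low, so it reached the filter of 1 RPKM only through low. Its difference was -0.86 on the log2(RPKM + 1) scale (SE 0.24, unadjusted p = 0.00433 and adjusted p = 0.961 in limma). Because of the filter, that unadjusted p is given as a description only. GBP2 had 2.52 ± 1.04 and 3.56 ± 1.32 RPKM and the kinase gene JAK1 26.2 ± 11.1 and 19.4 ± 9.18. In the costimulation list 2 of 4 tested genes had the higher mean in low, with a median of -0.02, and CD86, a ligand of CD28, had 1.94 ± 0.442 and 2.33 ± 0.749 RPKM. CD83 had 1.10 ± 0.162 and 1.21 ± 0.366 RPKM, ICAM1 10.6 ± 2.67 and 10.5 ± 3.20, and CD58 6.54 ± 1.38 and 6.41 ± 1.24.

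Markers of the cells that could carry class II transcripts varied with the libraries too. In bulk tissue, fewer cells of a type and less RNA per cell cannot be told apart. Of 12 dendritic cell markers 6 were found, all under 1 RPKM on average and none at 0 in every library, and they summed to 1.33 to 2.48 RPKM in high and 1.39 to 3.52 in low. FLT3, a cytokine receptor of dendritic cells and early blood cells, had 0.40, 0.46, 0.29, 0.36 and 0.21 RPKM in high replicates 1 to 5 and 0.38, 0.76, 0.19, 0.41 and 0.24 in low replicates 1 to 5. XCR1, a chemokine receptor of cross-presenting dendritic cells, had 0.85, 0.74, 0.74, 0.55 and 0.24 RPKM in high and 0.88, 1.54, 0.40, 0.54 and 0.35 in low. Both were highest in low replicate 2, as SLA-DRA was.

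For single dendritic cell markers the p-values that follow are a description only. Across the 10 libraries FLT3 had r = 0.94 with SLA-DRA (permutation p = 0.00026, adjusted p = 0.00156 over the 6 markers) and rho = 0.92 (permutation p = 0.00051, adjusted p = 0.00306). XCR1 had r = 0.89 (permutation p = 0.00127, adjusted p = 0.00381) and rho = 0.85 (permutation p = 0.00295, adjusted p = 0.00885). Without the 2 libraries farthest from the median of each marker, r was 0.82 for both. The other 4 markers did not pass, with r of 0.73 for CD1E, 0.61 for CCR7, 0.06 for FCER1A and -0.03 for BATF3, which was listed at 0 in 3 libraries. These relations were examined after values had been seen, and the adjustment over the 6 markers does not cover the choice of this list.

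The mean log2(RPKM + 1) of the 6 dendritic cell markers found had r = 0.90 with SLA-DRA (permutation p = 0.00075, adjusted p = 0.0120 over 16 relations of 8 marker lists with SLA-DRA and TAP1) and rho = 0.82 (permutation p = 0.00571, adjusted p = 0.0914). Without low replicate 2 this r was 0.77. With r over all 10 libraries, the dendritic cell markers with SLA-DRA were the 1 relation of the 16 that passed, and with rho none passed. The 7 of 11 B and plasma cell markers found summed to 3.39 to 5.47 RPKM in high and 3.16 to 12.8 in low, and their level had r = 0.74 with SLA-DRA (permutation p = 0.00691, adjusted p = 0.0553, r = 0.56 without low replicates 2 and 4) and rho = 0.61 (permutation p = 0.0659). Of 19 T and NK cell markers 13 were found, GZMA under 2 identifiers, and they summed to 26.2 to 44.8 RPKM in high and 35.1 to 68.6 in low, with r = 0.59 (permutation p = 0.0653, adjusted p = 0.174, r = 0.33 without low replicates 2 and 4) and rho = 0.52 (permutation p = 0.134). All 9 T and NK cell identifiers tested had the higher mean log2(RPKM + 1) in low, against 51.2% of all tested genes, with a median difference of -0.44. Of these 9, 3 had an unadjusted p under 0.05 in limma, against 4.55% of all tested genes. CD8B, with 0.756 RPKM in high and 1.46 in low, reached the filter only through low. Among those under the filter, CD5, CD6 and GZMK averaged higher in low. PRF1 had 0.634 and 0.63 RPKM and GZMA (ENSSSCG00000016902) 0.13 and 0.126 in high and low. Both B and plasma cell markers tested were higher in low by mean log2(RPKM + 1), against 51.2% of all tested genes, with a median of -0.30. Of these, MZB1 had 8.89 RPKM in low replicate 2, against 0.96 to 2.30 in the other low libraries and 0.76 to 2.73 in high.

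The 9 of 17 macrophage and Kupffer cell markers found summed to 422 to 460 RPKM in high and 355 to 643 in low. All 9 were tested and 6 had the higher mean log2(RPKM + 1) in low, against 51.2% of all tested genes. The median difference was -0.29, and 0 had an unadjusted p under 0.05. Their level had r = 0.36 with SLA-DRA (permutation p = 0.319, adjusted p = 0.387) and rho = 0.12 (permutation p = 0.758), and r was -0.12 without low replicate 2. With TAP1 it had r = 0.72 (permutation p = 0.0228, adjusted p = 0.122) and rho = 0.60 (permutation p = 0.0734), and r was 0.38 without low replicates 2 and 3. The 9 markers did not move as one, since 6 had a positive r with SLA-DRA and 3 a negative one, from -0.56 for MARCO to 0.69 for C1QA, given here as a description with no test. C1QA, a complement gene of macrophages, had its highest value, 301 RPKM, in low replicate 2, where CSF1R, CD68 and LYZ were also at their highest. MARCO, a scavenger receptor of macrophages, and MRC1, a mannose receptor, had their lowest values there, 3.21 and 18.1 RPKM. The 7 hepatocyte markers found summed lowest in low replicate 2, and their level had r = -0.54 with SLA-DRA (permutation p = 0.115, adjusted p = 0.229) and rho = -0.30 (permutation p = 0.407). Without that library r was 0.075. No marker found stood at 0 in every library. The part of any of these cell types in the levels of the class II and TAP genes was not tested.

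**Figure D5:**
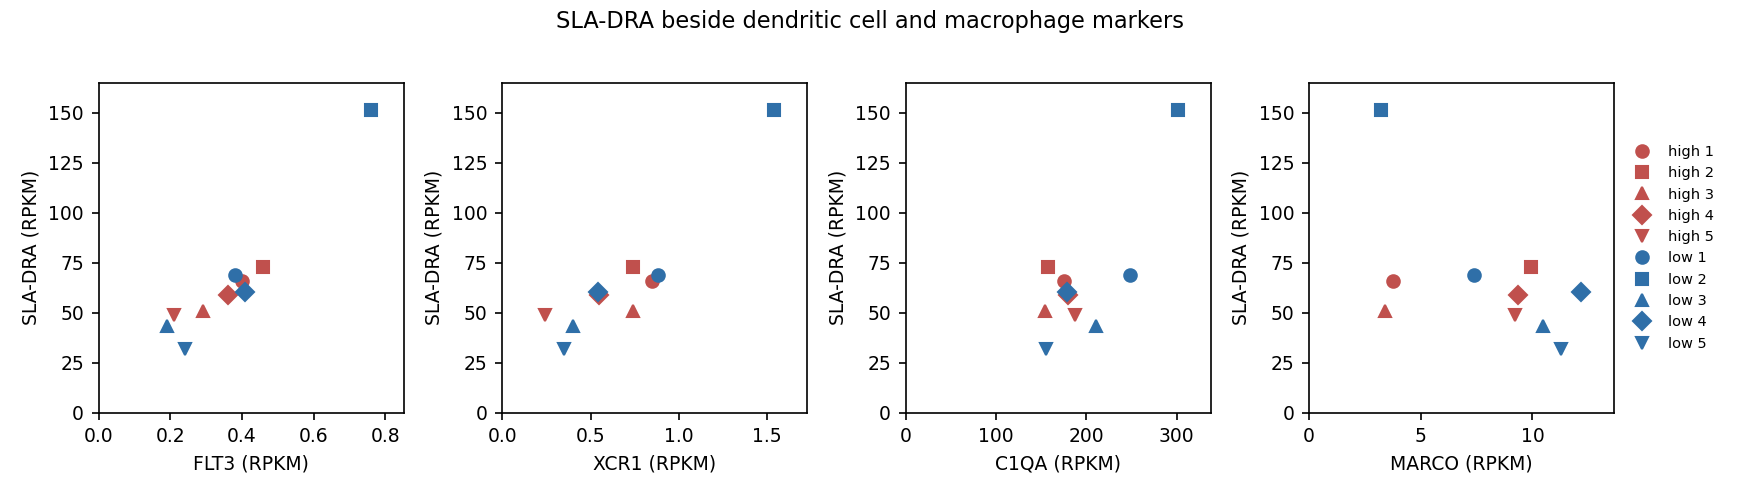
SLA-DRA (vertical axis, RPKM) against 2 dendritic cell and 2 macrophage markers (horizontal axes, RPKM, from 0), with 1 point per library, coloured by group and shaped by replicate number. FLT3 and XCR1 had the highest r with SLA-DRA of the 6 dendritic cell markers found. The others, not shown, had r of 0.73 (CD1E), 0.61 (CCR7), 0.06 (FCER1A) and -0.03 (BATF3). C1QA and MARCO had the highest and the lowest r of the 9 macrophage markers. SLA-DRA is higher where FLT3 and XCR1 are higher, while low replicate 2, at 151 RPKM of SLA-DRA, has the highest C1QA value, 301 RPKM, and the lowest MARCO value, 3.21 RPKM.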

How the data were processed

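Liver RNA was measured by RNA sequencing in 10 samples, 5 per group. Per the labels' protocols, the RNA had integrity numbers of 7.1 to 8.1 and TruSeq v2 libraries were read in pairs of 75 bp, 3 samples per lane. The submitters' processing notes name the genome build Sscrofa10.2. The sources used here do not give the aligner, the counter or the annotation. For 25009 genes the authors deposited RPKM values, with a signed fold change and a p-value of their own for each, per the file headers; the test behind that p-value is not stated. In 624 RPKM values a dot marks groups of digits and was read so.

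Symbols came from a table that named 11779 of the identifiers. Genes whose mean reached 1 RPKM were tested on log2(RPKM + 1), a scale that understates changes of low genes, with limma 3.58.1 in R 4.3.3 (eBayes with trend, two-sided, no covariates, Benjamini-Hochberg over all genes), a fit tested on simulated data. Correlations and permutation tests used Python 3.11.15. Relative depth came from the steps of values under 0.01 RPKM, some of which rested on as few as 4 genes; whole reads were not recovered, so no counting interval is given. Alternatives changed the pseudocount, the filter, the scaling, the eBayes setting and the libraries used. The members and lists were chosen with earlier results of these data known. The genes named are all members found, the 8 named genes most like SLA-DRA and TAP1, and up to 4 genes with the smallest p in each list; CD74 and B2M, meant as further reference genes for likeness, are not analysed here. Dendritic cell, macrophage and hepatocyte genes, and SLA-DOA, SLA-DOB, CIITA, SPI1 and GFAP, were named after their values were seen.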

Additional observations from a re-analysis of the deposited data

How the results depend on the processing

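In 19 alternative fits no gene passed over all genes, and no adjusted p of the 6 genes fell under 0.735. The count with an unadjusted p under 0.05, 497 as reported, was 912 with no filter on low values, 199 without high replicates 1 and 5 together, and 280 to 819 when single libraries were left out. Leaving out single libraries gave differences of -0.29 to 0.26 for SLA-DRA, -0.23 to 0.25 for SLA-DQB1, -0.37 to -0.05 for SLA-DMA, -0.37 to -0.11 for SLA-DMB, -0.25 to -0.10 for TAP1 and -0.20 to 0.027 for TAP2. The sign also turned for SLA-DQB1 (-0.0075) with libraries scaled to their sum without mitochondrial genes, for SLA-DMA (0.026) without high replicates 1 and 5, and, in a choice made after seeing the data, without low replicates 2 and 4 for SLA-DRA (0.36), SLA-DMA (0.056) and TAP2 (0.11). Every other alternative kept the sign of these genes. The cause was not tested. Of the 15 pairs, 7 passed as reported and in deviations from the group means, 5 with median ratio scaling, 2 without the 2 libraries farthest on the x axis and 3 without low replicate 2; r of SLA-DRA with TAP1 turned to -0.23 in the former of these last 2. Fewer libraries were used there. No paired analysis was possible because the labels give the groups no shared replicate numbers. Since the absolute depth is unknown, so is the precision of values under 1 RPKM, such as those of the dendritic cell markers and CIITA.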

Other observations

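A pair of identifiers to which the name table gives no name resembled the class II chains; both were chosen after their values were seen and no name or role is given to them here. ENSSSCG00000001456 had 52.4, 76.9, 54.3, 60.8 and 41.8 RPKM in high replicates 1 to 5 and 80.3, 110, 35.9, 51.8 and 40.9 in low replicates 1 to 5, with r = 0.94 to SLA-DQB1 over the 10 libraries as a measure of likeness. ENSSSCG00000001455 had 59.9, 105, 65.9, 69.4 and 43.4 RPKM in high and 97.9, 139, 40.7, 57.6 and 55.9 in low, with r = 0.89 to SLA-DQB1. Both were highest in low replicate 2 and lowest in low replicate 3, and neither differed between the groups beyond the spread (adjusted p = 0.996 and 0.990 in limma).

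The proportion of SLA-DRA to SLA-DMA, 1 chain each of DR and DM, was not constant. The ratio of SLA-DRA to SLA-DMA in RPKM was 8.39 in high replicate 1 and 9.19 in low replicate 2, and 4.06 to 6.38 in the other 8 libraries. With SLA-DQB1 in place of SLA-DRA, high replicate 3 joined them. That ratio was 6.19 in high replicate 1, 5.32 in low replicate 2, 5.29 in high replicate 3 and 3.21 to 4.12 elsewhere. The ratio of SLA-DRA to SLA-DMB was not taken. SPI1, a transcription factor of macrophages and other myeloid cells, had 33.3 RPKM in low replicate 2, 19.5 in high replicate 3 and 18.8 in high replicate 1, against 5.70 to 16.5 in the others. A relation of SPI1 to these ratios was not tested.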
